A study of Mus musculus with 6 samples.

Results

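The proteins of the large subunit of the mitochondrial ribosome were followed through the messenger RNAs of their genes, which in the mouse carry the symbol Mrpl and a number. Every gene with such a symbol on a probe set naming a single gene was taken, and each was read by its probe set of highest mean. This gave 47 members among 18192 genes on the array, and all 47 were among the 13232 genes whose signal was high enough to be tested. Here and below, a gene was counted as on the array only where a probe set named it alone. Mrpl30 and Mrpl53 appeared only on probe sets that name several genes and were left out. The study asked what loss of the retinoblastoma gene Rb1 does to red cell precursors, and its title links Rb to cell cycle exit and mitochondrial biogenesis. RNA of bone marrow cells positive for both CD71, through which cells take up iron-laden transferrin, and Ter-119, a red cell surface antigen, was hybridised to 6 Affymetrix mouse arrays, 3 per group. Rb-null animals had the genotype EpoR-GFPcre/+; Rb fl/fl, with loxP sites on both Rb alleles. Controls were EpoR-GFPcre/+; Rb fl/+, so both groups carried the Cre recombinase at the erythropoietin receptor locus, which limits recombination to cells that use this locus, and the controls also had 1 floxed allele. Age was not stated. Nothing in the labels says that arrays of a group came from separate animals, and the p-values therefore reflect only how far these samples scatter, part of which may be technical.

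The mitochondrial ribosome translates the few messenger RNAs of the mitochondrial genome, which encode core subunits of the respiratory chain and ATP synthase. Its RNAs come from mitochondrial DNA, but all its proteins are made in the cytosol from nuclear genes and imported. The large subunit joins amino acids at the peptidyl transferase centre, receives translation factors at a flexible stalk and releases the growing protein through an exit tunnel facing the inner membrane. Red cell precursors need much mitochondrial function for heme synthesis, and they discard their mitochondria as they mature.

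Some features of the 6 arrays bear on every value below. Median deposited intensity per array was 23.3 to 31.2 in controls and 24.5 to 29.5 in Rb-null samples, and the number of arrays, 3 per group, limits the precision. With each gene centred on its group mean, same-numbered arrays of the 2 groups deviated together over genes, with correlations of 0.615 to 0.653. Between arrays of different number the correlation was at most 0.0370. The centring itself pulls these values down once the same-numbered ones are high, so they are no independent contrast. Signal of the 18S ribosomal RNA probes was 542 and 1231 on the 2 arrays numbered 3 and 32.6 to 66.2 on the others. The 3'/5' ratio of the actin probes, a sign of RNA integrity, was 1.15 to 1.67 in controls and 1.01 to 1.43 in Rb-null samples. Rb1 signal ran from 1379 to 2760 in controls and from 2897 to 4045 in Rb-null samples. The position of its probe set relative to the floxed part is unknown here. Rb1 signal is therefore no check of the labels, and the direction of each difference depends on them.

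Large-subunit genes were lower in the Rb-null samples as a group, by a modest amount, and no single member passed the test. The median member had a log2 fold change (Rb-null minus control, on log2 of intensity plus 16) of -0.31, a signal 19.1% lower, with quartiles of -0.47 and -0.07 and a range of -0.94 to 0.40. The median over all genes tested was -0.04. Of the 47 members, 42 were lower in the Rb-null mean (89.4%) and 5 higher, where 54.6% of all genes tested were lower. In bulk samples, fewer cells of a type and less RNA per cell cannot be told apart.

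The lower level was seen in each pair of same-numbered arrays. The median member differed by -0.22 between the arrays numbered 1, by -0.31 between those numbered 2 and by -0.34 between those numbered 3, with 31, 44 and 37 of 47 members lower (against 52.6%, 53.6% and 53.2% of all genes tested). The corresponding medians over all genes were -0.03, -0.02 and -0.05. In all 3 pairs 29 members were lower (61.7%, against 24.1% of all genes tested) and 2 were higher, Mrpl9 and Mrpl57 (18.4% of all genes tested were higher in all 3). The remaining 16 differed in direction between pairs. Without both arrays numbered 3, which had the high 18S signal, the median member had a log2 fold change of -0.27.

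**Figure D1:**
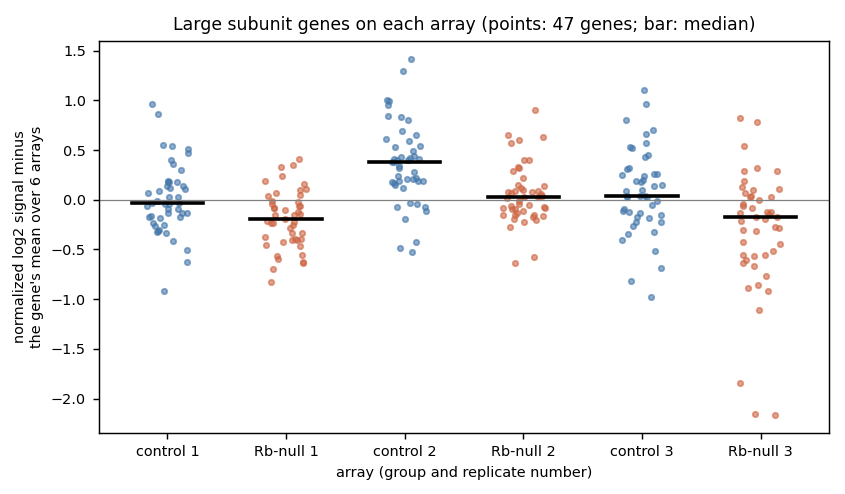
Normalized log2 signal of all 47 Mrpl genes on each of the 6 arrays, centred on each gene's mean, with control and Rb-null arrays of the same replicate number side by side; points are genes and horizontal bars are medians. The median was lower on the Rb-null array of each pair (-0.20 against -0.03, 0.03 against 0.38 and -0.17 against 0.04), and the differences between replicate numbers are as large as those between groups.

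Arrays of a group also differed from each other. Control array 2 had the highest median of the centred members, 0.38, and 38 of 47 members lay above their own mean there. Rb-null array 2, at 0.03, was level with control array 3 at 0.04 and above control array 1 at -0.03, so the groups overlap when all 3 numbers are pooled. In 38 of 47 members the means of the 3 numbered pairs spanned more than the difference between the groups.

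Tested with limma across all 13232 genes, no member had an adjusted p (Benjamini-Hochberg) under 0.05. The lowest among the members was 0.994, and the lowest of any gene was 0.106. Unadjusted p was under 0.05 for 2 members, both lower, Mrpl52 and Mrpl33 (4.26% of members, against 1.51% of all genes tested for lower and 2.55% for higher genes). With the replicate number as a block in the limma fit, unadjusted p was under 0.05 for 19 lower members (40.4%, against 9.14% of all genes) and 1 higher member, Mrpl9 (2.13%, against 7.77%). Adjusted p still stayed above 0.05 for every member in that fit, with a lowest value of 0.114, and 0% of all genes were called in either fit. The block with a mean-variance trend and robust variance moderation in limma gave 3 members an adjusted p under 0.05, all lower (1.39% of all genes tested were called lower and 2.18% higher): Mrpl52 at 0.0349, Mrpl22 at 0.0388 and Mrpl35 at 0.0445.

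Most differences were small. A log2 fold change of -0.4 or lower was found in 18 members (38.3%, against 13.4% of all genes tested), 9 lay between -0.4 and -0.2, 18 within 0.2 of 0, and 2 at 0.2 or higher. The standard error of a member's change had a median of 0.297 and ran from 0.243 to 0.753 without the block. With the block its median was 0.161. Leaving out 1 array moved the log2 fold change by over 1.5 times for 40 of 47 members, and for 7 it did not, Mrpl1, Mrpl16, Mrpl21, Mrpl27, Mrpl36, Mrpl39 and Mrpl52. The same-numbered partner of the array left out stays in such a fit, and same-numbered arrays deviated together.

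**Figure D2:**
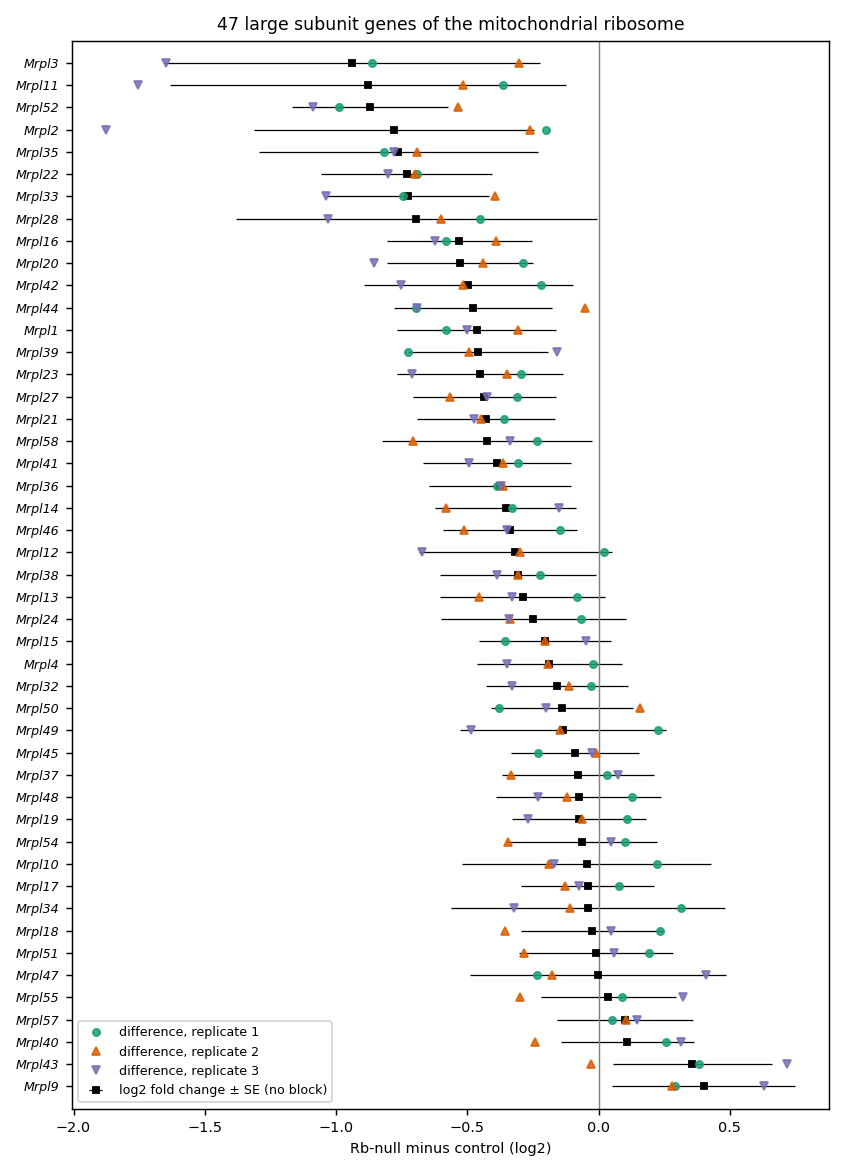
Log2 fold change (Rb-null minus control) of each of the 47 Mrpl genes with its standard error from the limma fit without the block, ordered by size; coloured symbols mark the differences within the 3 numbered pairs and the vertical line marks 0. Changes ran from -0.94 for Mrpl3 to 0.40 for Mrpl9, and 42 of 47 squares lie below 0.

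Mrpl52, a protein of the mitochondrial ribosome without a bacterial counterpart, had the smallest p of all members. Deposited intensities of controls 1, 2 and 3 were 606, 800.1 and 509.7, and those of the Rb-null samples, in the same order as in all lists of values here, were 320.2, 559 and 230.3. After normalization all 3 Rb-null arrays lay below all 3 controls, while the deposited values overlap, since Rb-null array 2 read above control array 3. Controls averaged 639 ± 148 (SD, n = 3) and Rb-null samples 369.7 ± 169.7 (SD, n = 3). The log2 fold change was -0.87 (SE 0.30), a signal 45.3% lower (adjusted p = 0.994, limma). Within pairs it was -0.99, -0.54 and -1.09. The other probe sets of the gene gave -0.77 and -0.85, so all 3 lay on the same side.

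Mrpl33, the counterpart of bacterial bL33, read 324, 342 and 213 in controls and 196, 257 and 97.0 in Rb-null samples. Both groups were lowest on array 3, and each Rb-null array was below the control of its number, with log2 differences of -0.74, -0.40 and -1.04. The log2 fold change was -0.73 (SE 0.31), with an adjusted p of 1.00 in limma. A second probe set of the gene gave -0.15.

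Mrpl22, whose bacterial counterpart lines the exit tunnel, read 374, 448 and 209.6 in controls and 242, 269 and 114 in Rb-null samples. Array 3 was again the lowest of each group, and the differences within pairs were close to each other, -0.69, -0.70 and -0.80. The log2 fold change was -0.73, with a standard error of 0.32 without the block and 0.14 with it.

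The starts of these genes are shown because the members are nuclear genes under separate promoters. For 41 of 47 members RefSeq's mouse assembly GRCm38.p6 gave 46 windows of 300 bases around the transcription start. The stretches below run from 100 bases before to 19 after the start base, 5′ to 3′ on the gene's strand, for 3 members with a lower signal (Mrpl52 at chr14:54426809-54426928, plus strand; Mrpl33 at chr5:31613851-31613970, plus strand; Mrpl22 at chr11:58171564-58171683, plus strand) and 2 with a higher mean signal (Mrpl9 at chr3:94443236-94443355, plus strand; Mrpl43 at chr19:45006423-45006542, minus strand). Capitals mark matches, on either strand, to CCGGAAG (core letters of ETS family sites) and to GCATGCGC (core letters of a site of NRF1, a factor known to act on nuclear genes for mitochondrial proteins), and matches on both strands can overlap, as in Mrpl9.
Mrpl52: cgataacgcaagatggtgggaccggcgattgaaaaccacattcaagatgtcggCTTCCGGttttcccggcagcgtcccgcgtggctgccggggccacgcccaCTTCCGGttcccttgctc
Mrpl33: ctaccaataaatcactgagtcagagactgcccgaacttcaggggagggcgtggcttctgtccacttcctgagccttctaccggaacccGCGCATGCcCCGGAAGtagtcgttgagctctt
Mrpl22: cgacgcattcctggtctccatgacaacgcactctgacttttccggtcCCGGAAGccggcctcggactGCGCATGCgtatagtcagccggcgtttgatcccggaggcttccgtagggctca
Mrpl9: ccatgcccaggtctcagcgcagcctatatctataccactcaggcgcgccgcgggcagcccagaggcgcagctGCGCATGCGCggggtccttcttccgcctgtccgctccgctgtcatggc
Mrpl43: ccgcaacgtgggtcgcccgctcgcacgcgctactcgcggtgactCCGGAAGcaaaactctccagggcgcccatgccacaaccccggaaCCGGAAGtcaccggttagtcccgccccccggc

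Over the whole windows, CCGGAAG was in 14 of 46 member windows (30.4%), against 15.2% of the windows of all genes tested and 8.86% of all windows. GCATGCGC was in 7 (15.2%, against 4.48% and 2.71%). AAGATGGC, core letters of a YY1 site, was in 6 windows (13.0%, against 3.92% and 2.75%), and CACGTG, the E-box, in 6 windows of 4 genes (13.0%, against 9.20% and 7.15%). Several of these E-box windows are overlapping windows of Mrpl2 that hold the same site, and by gene the E-box was in 4 of 41. TGACGTCA, letters of a CREB site, was in 2 windows (4.35%, against 2.73% and 1.79%), and TATAAA in 3 (6.52%, against 8.59% and 13.6%). TTTGGCGC and TTTCCCGC, letters of E2F sites, were searched together and found in none of the 46 windows (2.69% of tested-gene windows and 1.56% of all windows hold them). All motifs were read on both strands, and a match describes letters, not binding.

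Median GC content was 57.7% in member windows, 59.7% in the windows of all tested genes and 52.7% in all windows. Members with CCGGAAG had a median log2 fold change of -0.25 (14 genes) and those without it -0.35 (27 genes). With GCATGCGC the median was -0.16 (7 genes) and without it -0.36 (34 genes). Both Mrpl9, higher in the mean, and Mrpl22, lower, hold the NRF1 core letters, and both Mrpl43 and Mrpl52 hold CCGGAAG.

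The proteins around the peptidyl transferase centre, where peptide bonds form, were all lower: 5 of 5 members in every pair, with a median of -0.53 and pair medians of -0.31, -0.30 and -0.62. Mrpl16, which contacts the tRNA that brings the next amino acid, read 224, 284 and 272 in controls and 146, 213 and 170.1 in Rb-null samples. Its groups did not overlap even on the deposited scale, and the log2 fold change was -0.53 (SE 0.28). Mrpl27, whose bacterial counterpart reaches toward the catalytic site, read 204, 344 and 219 in controls and 164, 226 and 159.9 in Rb-null samples. On the deposited scale Rb-null array 2 was above control arrays 1 and 3, but every Rb-null array was below the control of its number, and the log2 fold change was -0.43 (SE 0.27). Mrpl3, at -0.94, and Mrpl2, at -0.78, had standard errors of 0.72 and 0.53 without the block and 0.27 and 0.36 with it. Within pairs Mrpl3 differed by -0.86, -0.30 and -1.65 and Mrpl2 by -0.20, -0.26 and -1.88. The other probe sets of Mrpl3 gave -0.22, 0.21 and -0.48. Without Rb-null array 3 the log2 fold change was -0.09 for Mrpl3 and -0.52 for Mrpl2. Without both arrays numbered 3 it was -0.59 for Mrpl3 and -0.23 for Mrpl2. Mrpl4 had the smallest difference of the group, -0.19 (SE 0.28).

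The stalks guide tRNAs and translation factors onto the ribosome, and their 4 proteins had a median of -0.39, with 2 lower in all 3 pairs. Mrpl1, of the stalk on the side where spent tRNA leaves, read 40.9, 54.1 and 25.1 in controls and 20.6, 40.7 and 14.2 in Rb-null samples, close to the lower limit of the tested signals. Each Rb-null array was below its numbered control, and the log2 fold change was -0.46 (SE 0.30). Mrpl11, at the base of the factor-binding stalk, read 92.6, 228 and 39.6 in controls and 65.7, 154 and 1.73 in Rb-null samples. Its value on Rb-null array 3 was near 0, and the log2 fold change of -0.88 (SE 0.75) has the largest standard error of all members and was -0.02 without that array. Within pairs Mrpl11 differed by -0.37, -0.52 and -1.75, and without both arrays numbered 3 it had -0.45. Mrpl12, the stalk protein that contacts translation factors and has also been reported to bind mitochondrial RNA polymerase, read 68.9, 151 and 69.4 in controls and 66.7, 119 and 38.8 in Rb-null samples. On the deposited scale Rb-null array 2 lay within the control range, array 1 just below it and array 3 further below. After normalization Mrpl12 differed within pairs by 0.020, -0.30 and -0.67, and the log2 fold change was -0.32 (SE 0.37). It was -0.048 without control array 2, -0.079 without Rb-null array 3 and -0.59 without Rb-null array 2. Mrpl10, which anchors Mrpl12 to the subunit, read 55.1, 148 and 158 in controls and 62.9, 128 and 140.3 in Rb-null samples, with both arrays numbered 1 low and a log2 fold change of -0.046 (SE 0.48).

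The exit tunnel members were lower in the mean in 8 of 8 cases, although Mrpl47 and Mrpl17 were close to 0, and in all pairs in 6, with a median of -0.35. Beside Mrpl22, this group holds Mrpl39, which read 196, 190.2 and 103 in controls and 113, 129.6 and 91.4 in Rb-null samples. Control array 3 read below Rb-null arrays 1 and 2 on the deposited scale and just above them after normalization, and the log2 fold change was -0.46 (SE 0.27). Mrpl44, a protein with a fold like that of RNase III, read 143, 108 and 77.6 in controls and 80.9, 105 and 43.0 in Rb-null samples. Within pairs it differed by -0.69, -0.051 and -0.69, with little difference in pair 2, and the log2 fold change was -0.48 (SE 0.30). Mrpl45, which sits at the tunnel exit and holds the ribosome to the inner membrane, read 181, 167 and 146 in controls and 151, 167 and 145 in Rb-null samples. Its 2 groups overlapped and its log2 fold change was -0.089 (SE 0.24), with the smallest standard error of the group. Mrpl23 had -0.45 (SE 0.32) and Mrpl24 -0.25 (SE 0.35), and 2 members were level, Mrpl17 at -0.042 (SE 0.25) and Mrpl47 at -0.0027 (SE 0.49).

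The central protuberance, the crown of the subunit that faces the small subunit, had the median nearest to 0 of the 4 structural groups: 5 of 7 members were lower in the mean, 3 in all pairs, and the median was -0.07. Mrpl46, a mitochondria-specific protein, had -0.34 (SE 0.25) and was lower in every pair with no overlap of the normalized groups. Mrpl58, a peptidyl-tRNA hydrolase that is also a structural member of the subunit, read 87.8, 219.5 and 64.9 in controls and 69.1, 127 and 48.7 in Rb-null samples. Both groups were highest on array 2 and each Rb-null array was below its numbered control, with a log2 fold change of -0.43 (SE 0.40), but a second probe set gave 0.23 and the value without control array 2 was -0.03. Mrpl40 read 275, 356 and 217 in controls and 341, 299 and 273 in Rb-null samples, higher in pairs 1 and 3 and lower in pair 2, with a log2 fold change of 0.11 (SE 0.25). Mrpl38 had -0.31 (SE 0.30), Mrpl18 -0.026 (SE 0.27), Mrpl48 -0.075 (SE 0.31) and Mrpl55 0.037 (SE 0.26).

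The other members with a bacterial counterpart include Mrpl20, whose bacterial counterpart is needed early in assembly of the large subunit. Mrpl20 read 368, 491 and 536 in controls and 317, 361 and 286 in Rb-null samples. All 3 Rb-null arrays were below all 3 controls on the deposited scale too, and the log2 fold change was -0.53 (SE 0.28). Mrpl21 read 105, 152 and 106 in controls and 75.1, 106 and 72.4 in Rb-null samples, with differences of -0.36, -0.45 and -0.47 within pairs and a log2 fold change of -0.43 (SE 0.26), while its second probe set gave 0.28. Mrpl32, which a protease of the mitochondrial inner membrane must trim before it can enter the ribosome, read 271, 311 and 193 in controls and 274, 289 and 151 in Rb-null samples. Its groups overlapped, and the log2 fold change was -0.16 (SE 0.27).

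Mrpl35 was chosen for description after its values were seen, because of its adjusted p in the moderated block fit. It read 166, 409 and 92.6 in controls and 86.9, 247 and 48.6 in Rb-null samples, with a spread between numbers far above the difference between groups. Within pairs the differences were alike, -0.82, -0.69 and -0.78, so that the standard error of the log2 fold change of -0.76 was 0.53 without the block and 0.14 with it. Without control array 2 it was -0.30. Mrpl28, the counterpart of bacterial bL28, had -0.69 (SE 0.69 without the block and 0.17 with it). Within pairs it differed by -0.45, -0.60 and -1.03. The log2 fold change was 0.06 without Rb-null array 3 and -0.53 without both arrays numbered 3. Of the rest, Mrpl36 had -0.38 (SE 0.27), Mrpl14 -0.35 (SE 0.27), Mrpl13 -0.29 (SE 0.31), Mrpl15 -0.20 (SE 0.25), Mrpl19 -0.074 (SE 0.26) and Mrpl34 -0.040 (SE 0.52).

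The bacterial-type members together, 29 genes, had a median of -0.35, with 27 lower in the mean and 20 in all pairs. The 18 mitochondria-specific members, which have no bacterial counterpart and lie mostly on the surface, had a median of -0.14, with 15 lower in the mean and 9 in all pairs. The difference between these groups was not tested. Mrpl42 had -0.50 (SE 0.40), with -0.20 without control array 2 and -0.84 without control array 1. Within pairs it differed by -0.22, -0.52 and -0.75. Of the other mitochondria-specific members, Mrpl41 had -0.39 (SE 0.28), Mrpl50 -0.14 (SE 0.27), Mrpl49 -0.14 (SE 0.39), Mrpl37 -0.078 (SE 0.29), Mrpl54 -0.065 (SE 0.29) and Mrpl51 -0.011 (SE 0.29).

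The 5 members with a higher Rb-null mean included Mrpl40 and Mrpl55, given above. Mrpl9, the counterpart of bacterial bL9, read 193, 181 and 230.5 in controls and 244, 227 and 364 in Rb-null samples. Each Rb-null array was above its numbered control, the groups overlapped because control array 3 read above Rb-null array 2, and the log2 fold change was 0.40 (SE 0.35). Its other probe sets gave -0.03 and 0.03. Mrpl43, a mitochondria-specific protein, read 185, 232 and 91.7 in controls and 249, 229 and 159 in Rb-null samples, with almost no difference in pair 2 and a log2 fold change of 0.36 (SE 0.30). Mrpl57, a small mitochondria-specific protein, read 1033, 915 and 730.0 in controls and 1160.2, 1006 and 844 in Rb-null samples. It was higher by 0.051, 0.10 and 0.14 within pairs, a log2 fold change of 0.10 (SE 0.26).

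**Figure D3:**
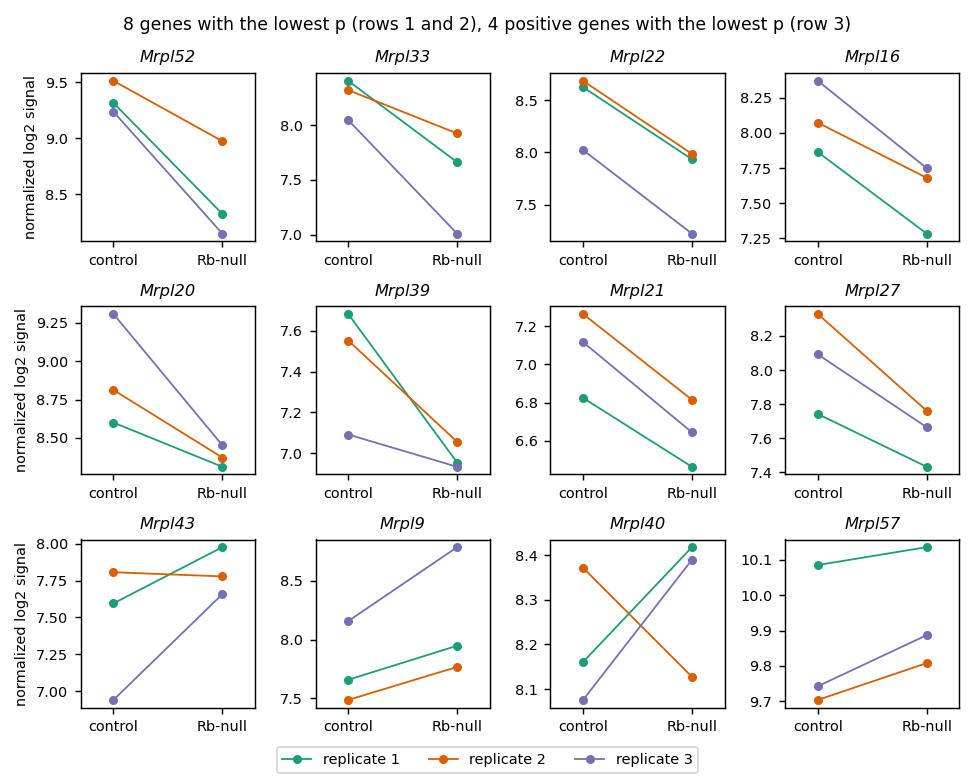
Normalized log2 signal on control and Rb-null arrays, with a line joining arrays of the same replicate number, for the 8 Mrpl genes of smallest p and for the 4 genes of positive log2 fold change with the smallest p; each panel has its own axis, so levels are not comparable between panels. All 3 lines go down in each of the 8 panels, and for Mrpl9 and Mrpl57 all 3 go up.

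Groups without overlap were all on the lower side. After normalization 8 members (17.0%, against 4.78% of all genes tested) had all Rb-null arrays below all controls: Mrpl52, Mrpl33, Mrpl22, Mrpl16, Mrpl20, Mrpl39, Mrpl21 and Mrpl46. None had all Rb-null arrays above (5.13% of all genes tested). On the deposited scaling 2 of the 47 had no overlap, Mrpl16 and Mrpl20. With 3 arrays against 3, an exact permutation test of a single gene cannot give a p below 0.1.

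The readings also depended on the probe set. The members had 104 probe sets, of which 86 passed the filter on low signal, and 69 of these were lower in Rb-null samples, with a median of -0.22. Of 24 members with more than 1 such probe set, 12 had probe sets on opposite sides of 0: Mrpl3, Mrpl9, Mrpl15, Mrpl17, Mrpl19, Mrpl21, Mrpl38, Mrpl47, Mrpl48, Mrpl49, Mrpl50 and Mrpl58. For Mrpl48 the second probe set gave 0.72 against -0.07.

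Genes with an Mrps symbol, most of them for the small subunit of the mitochondrial ribosome, and genes of the cytosolic ribosome were described in the same way. Of 29 tested Mrps genes 24 were lower in the mean and 16 in all pairs, with a median of -0.40, and none had an adjusted p under 0.05 in limma without the block. The lowest p belonged to Mrps21 at -0.77 (SE 0.26), Mrps18a at -0.75 (SE 0.29) and Mrps14 at -0.79 (SE 0.33). Rpl genes belong to the large subunit of the cytosolic ribosome, and any found only on probe sets naming several genes was not counted. Of 20 tested Rpl genes (22 on probe sets naming a single gene), 20 were lower in the mean and 17 in all pairs. Their median was -0.31, the same as for the Mrpl genes to 2 decimals, and Rpl37 had -0.71 (SE 0.31). The limma fit with block, trend and robust moderation called 1 Mrps gene lower, Mrps14 (adjusted p = 0.0385), and 2 Rpl genes, Rpl37 (0.0305) and Rpl35 (0.0327). Whether the Mrpl genes differ from either list was not tested. The large subunit also holds 3 measured proteins without an Mrpl symbol, Gadd45gip1 at -0.27 (SE 0.37), Mrps30 at -0.17 (SE 0.32) and Mrps18a, and the last 2 are counted among the 29 Mrps genes as well.

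Genes that build or serve the mitochondrial ribosome were closer to 0. Of 23 tested genes (25 on the array) for assembly and rRNA maturation, 15 were lower in the mean and 3 in all pairs, with a median of -0.12. Ngrn, needed for the large-subunit rRNA, had -0.51 (SE 0.28). Of 14 tested translation factors and insertion proteins, 7 were lower in the mean, 4 were lower and 3 higher in all pairs, and the median was -0.02. Their log2 fold changes ran from -0.73 to 1.16. Mtrf1l, a release factor, had 1.16 (SE 0.57), and Gfm1, the elongation factor that moves the ribosome along, had -0.70 (SE 0.38). Of 8 tested genes (9 on the array) for transcription and upkeep of mitochondrial DNA, 4 were lower, and the median was 0.02. Tfam, which packages mitochondrial DNA and starts its transcription, had 0.11 (SE 0.25). No gene of these lists had an adjusted p under 0.05 in limma without the block, and Mtrf1l was called higher with the block, trend and robust moderation (adjusted p = 0.0230).

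**Figure D4:**
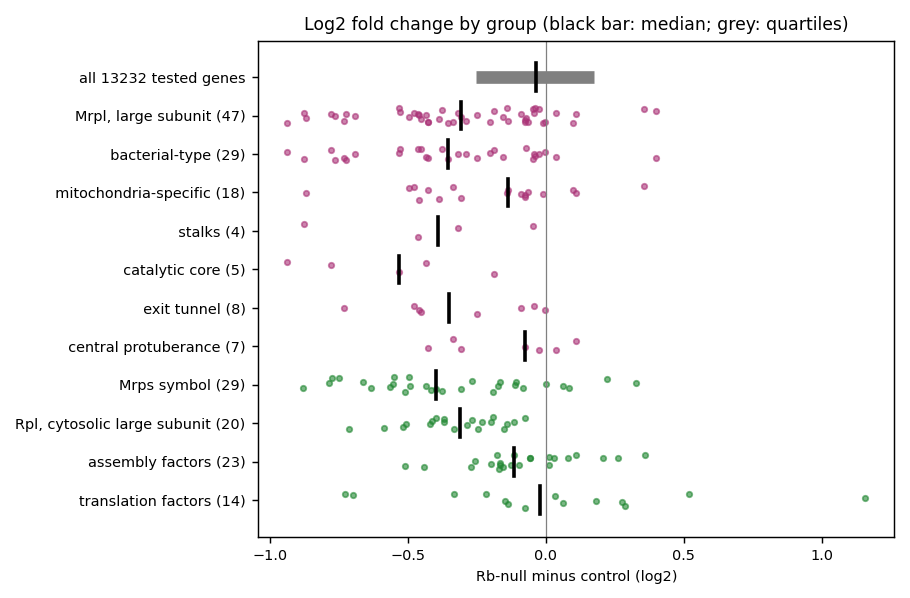
Log2 fold changes (Rb-null minus control) of the genes of each Mrpl role group and of the Mrps, Rpl, assembly and translation factor lists. The other comparison lists are not drawn. Points are genes and black bars are medians, and the grey bar spans the quartiles of all genes tested. The medians of the peptidyl transferase centre group (-0.53), the Mrps genes (-0.40) and the Rpl genes (-0.31) lie below 0, and that of the translation factors (-0.02) lies near it.

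Markers of the sorted cells were present on every array. Tfrc, which encodes CD71, read 6086 to 7960 on control and 7080 to 8506 on Rb-null arrays, and Alas2, the first enzyme of heme synthesis in red cells, 9462 to 10602 and 8760 to 10602. The 6 erythroid markers tested had a median log2 fold change of 0.04, with summed intensity of 32671 to 35087 in controls and 33632 to 38114 in Rb-null samples, while Hba-a1 was below the filter on its probe set naming a single gene.

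Markers of other cell types were also measured, and their medians were below 0, as was that of the Mrpl genes. Of 17 granulocyte markers on the array, all tested, 16 were lower in the Rb-null mean and 9 in all pairs, with a median of -0.49. Their summed intensity was 39173 to 59109 in controls and 28724 to 58520 in Rb-null samples. Macrophage markers (12 of 12 tested, 10 lower) had a median of -0.34 and sums of 1868 to 3081 and 1537 to 1936. B cell markers (8 of 9 tested, 7 lower) had a median of -0.32 and sums of 564 to 898 and 341 to 519, and Ebf1 was below the filter. T and NK cell markers (4 of 7 tested, 3 lower) had a median of -0.18 and sums of 269 to 397 and 251 to 369, with the T cell genes Cd3e, Cd3g and Cd2 below the filter. Megakaryocyte markers (5 of 8 tested, 5 lower) had a median of -0.28 and sums of 369 to 609 and 339.8 to 414, and mast cell, basophil and eosinophil markers (5 of 7 tested, 3 lower) a median of -0.33 and sums of 161 to 1383 and 111 to 1172. No marker had an adjusted p under 0.05 in limma without the block. With the block, trend and robust moderation the granulocyte gene Fcnb was called lower (adjusted p = 0.0490) and the erythroid factor gene Klf1 higher (adjusted p = 0.0478).

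The granulocyte markers differed by a median of -0.75 in pair 1, -0.02 in pair 2 and -0.68 in pair 3. In the same order, B cell markers had -0.47, -0.20 and -0.57. Mast cell, basophil and eosinophil markers had -0.06, -0.11 and -0.09, and macrophage markers -0.27, 0.06 and -0.88. T and NK cell markers had 0.08, -0.07 and -0.17, and megakaryocyte markers 0.04, 0.02 and -0.75. In the same pairs the Mrpl genes differed by a median of -0.22, -0.31 and -0.34, with 31, 44 and 37 of 47 lower. With the granulocyte marker level as a covariate in the limma fit, the median of the Mrpl genes was -0.16 and 0 members had an unadjusted p under 0.05. The granulocyte markers themselves had a median log2 fold change of -0.49, so the covariate overlaps with the group difference and the fit cannot separate them. The part of the other cell types in the lower Mrpl signal was not tested.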

How the data were processed

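The deposited value table held 1 intensity per probe set and array, on a linear scale, for 45101 probe sets of an Affymetrix mouse array. Per the labels' protocols, biotin-labelled RNA came from a Trizol and column extraction. For the scaling the authors applied to these intensities, the method was not given in the sources used here. Control, empty and out-of-range probe sets (64, 4 and 1) were dropped, 16 was added, log2 taken and arrays quantile normalized. An added 16 makes the changes of dim genes look smaller. Symbols came from GEO's platform annotation: 34941 of 45032 probe sets had 1 symbol, 932 several and 9159 none, and those with several were not named. Only probe sets whose mean passed the 40th percentile were tested, and each gene was read by its highest. The test was limma 3.58.1 in R 4.3.3, 2-sided, over all 13232 genes with Benjamini-Hochberg adjustment at 0.05, and the code was tested on simulated data. Every member was named. Values on each array were given for the 8 of smallest p, the 4 positive ones of smallest p and 8 of special function, and at most 3 genes of smallest p were named from each other list. With each gene centred on its group mean, same-numbered arrays correlated in every pair (0.615 to 0.653). This is why fits with the replicate number as a block are given. The labels do not say what the number marks. The members and lists were chosen with earlier results of these data known. Alternatives were scaling, offset, filter, probe set rule, array weights, block, the granulocyte covariate and leaving out arrays.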

Additional observations from a re-analysis of the deposited data

How the results depend on the processing

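Of the 47 members, 30 kept their sign under all 18 alternatives, 27 lower and 3 higher (Mrpl9, Mrpl40 and Mrpl43), and the other 17 changed sign at least once. For Mrpl1 there were 17 alternatives, since it did not pass the stricter filter. The block fits and the other filter settings leave a member's log2 fold change as it was, so they could not change a sign. The median log2 fold change of -0.31 was -0.16 with the granulocyte covariate, -0.38 with an offset of 1 and -0.21 with an offset of 64, and ran from -0.40 (without Rb-null array 2) to -0.20 (without control array 2) with 1 array left out. The count of members at an unadjusted p under 0.05, 2, was 4 with array weights, 5 without both arrays numbered 3, 0 on the deposited scaling, 0 with the granulocyte covariate, 1 with median scaling, 1 with an offset of 1, 5 with an offset of 64, 20 with the replicate block and 20 with the block, trend and robust moderation, and 0 to 4 with 1 array left out. Calls after adjustment, 0, were 3 with the block, trend and robust moderation, and 0 to 0 with 1 array left out (lowest adjusted p 0.939 to 1.00, limma). The 8 members without overlap became 18 without both arrays numbered 3, 2 on the deposited scaling, 4 with the mean of all probe sets, 4 with median scaling and 9 to 17 with 1 array left out, where fewer arrays make separation easier. Sign changed with the granulocyte covariate for Mrpl10 (0.34), Mrpl17 (0.061), Mrpl18 (0.023), Mrpl37 (0.10), Mrpl47 (0.21), Mrpl54 (0.021) and Mrpl57 (-0.041), without both arrays numbered 3 for Mrpl10 (0.016), Mrpl19 (0.023), Mrpl34 (0.10), Mrpl48 (0.0036), Mrpl49 (0.037) and Mrpl55 (-0.11), with array weights for Mrpl19 (0.0072), Mrpl34 (0.066), Mrpl49 (0.0038) and Mrpl55 (-0.070); with the mean of probe sets for Mrpl47 (0.13), Mrpl48 (0.32), Mrpl49 (0.056) and Mrpl50 (0.13), on the deposited scaling for Mrpl34 (0.0036) and Mrpl51 (0.060), with median scaling for Mrpl34 (0.0041) and Mrpl51 (0.061), and with an offset of 1 for Mrpl47 (0.048). With 1 array left out the log2 fold change ran from -0.52 to 0.30 for Mrpl10, -0.15 to 0.055 for Mrpl17, -0.12 to 0.16 for Mrpl18, -0.46 to 0.015 for Mrpl24, -1.28 to 0.056 for Mrpl28, -0.25 to 0.014 for Mrpl32, -0.43 to 0.50 for Mrpl34, -0.26 to 0.11 for Mrpl37, -0.49 to 0.40 for Mrpl47, -0.27 to 0.17 for Mrpl48, -0.38 to 0.23 for Mrpl49, -0.23 to 0.0074 for Mrpl50, -0.18 to 0.13 for Mrpl51, -0.25 to 0.039 for Mrpl54 and -0.049 to 0.15 for Mrpl55. The move exceeded 1.5 times for 21 to 28 members per array left out, most often for control array 2 and Rb-null array 3. The cause was not tested for any of these.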
